A study of Mus musculus with 2 samples.

Results

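Toll-like receptor and NF-kB pathway genes were examined in bone marrow LSK cells of nondiabetic and diabetic mice. The set holds 43 genes: 12 Toll-like receptors, 2 co-receptors, 4 adaptors, 4 IRAK kinases, 4 TRAF proteins, 3 genes of the TAK1 complex, 3 of the IKK complex, 5 NF-kB subunits and 6 genes of the IkB family and A20. They were chosen by symbol from a list, and every non-control probe whose transcript identifier mapped to one of these symbols was taken. This gave 56 probes, and all 43 genes had at least 1, out of 21360 genes that had a named probe on the array.

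Toll-like receptors recognise conserved microbial molecules, either at the cell surface or within endosomes. A bound receptor recruits adaptor proteins of the MyD88 or TRIF kind, which pass the signal through IRAK kinases and TRAF ubiquitin ligases to the kinase TAK1 and then to the IKK complex. IKK marks the inhibitory IkB proteins for degradation, so that NF-kB dimers enter the nucleus and switch on inflammatory and survival genes, among them genes for their own inhibitors. Stem cells and early progenitors of the bone marrow carry some of these receptors, and signals through them are known to push blood formation towards myeloid cells.

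LSK cells are negative for lineage markers and positive for Sca-1 and for c-kit, and contain hematopoietic stem cells and early progenitors. They were isolated by flow cytometry from C57BL/6J mice, either nondiabetic or made diabetic with streptozotocin (STZ), a toxin that destroys insulin-producing beta cells. The labels give female mice for both arrays, while the study describes male mice, and the labels give neither the age of these mice nor the time after STZ. For each condition 8.3 ng of total RNA, labelled as coming from 3 mice, was amplified as cDNA, labelled with Cy3 and hybridized to 1 Agilent 1-colour array, and both arrays lay on 1 slide read in 1 scan. With 1 array per condition the spread between mice is not measured, no test is possible, and every difference below is one between these 2 arrays. In such bulk samples, fewer cells of a type and less RNA per cell cannot be told apart.

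Levels below are processed intensities as read from each array, in arbitrary units and before scaling, and levels of different probes are not compared with each other. Ratios are diabetic over nondiabetic after each array was divided by its 75th percentile, which was 168 on the nondiabetic and 182 on the diabetic array, so an equal intensity on both arrays is a ratio slightly below 1. A probe called well above background by the scanner software on 1 array only has a bound, and the probe with the highest mean signal stood for a gene. Probes printed at least 5 times gave the spread between spots, which covers printing and reading but not amplification, labelling or hybridization. Spots of 1 probe had log2 ratios with an SD whose median was 0.25 among the 88 dimmest, 0.13 among the 79 middle and 0.07 among the 70 brightest of such probes.

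The pathway showed no shift in 1 direction, but several of its parts differed between the arrays. Of the 43 genes, 37 were well above background on both arrays, 2 (Tlr2 and Tlr11) on 1 array, and 4 (Tlr1, Tlr3, Tlr6 and Tlr8) on neither. Among the 39 with a ratio or a bound, 3 were higher by 2-fold or more on the diabetic array (Myd88, Ticam1 and Relb), which is 7.69% where the share over all genes was 11.0%. Another 8 were at least 2-fold lower (Tlr7, Tlr12, Ly96, Ticam2, Traf5, Tab1, Map3k7 and Nfkbiz), which is 20.5% where the share over all genes was 10.1%. By their brightest probes no member was 4-fold higher and Traf5, Map3k7 and Nfkbiz were over 4-fold lower, although dimmer probes of Map3k7 were higher (log2 0.51 and 0.33) and a dimmer probe of Nfkbib was at least 9.08-fold higher. The same 3 and 8 were counted over the 37 genes measured on both arrays alone. The median log2 ratio of the 39 genes was -0.02, beside 0.02 for the 15192 genes of the array that had a value, and the median size of the log2 ratio without its sign was 0.66, beside 0.44. These comparisons with all genes were not matched for brightness, although spots of dim probes spread more. Of the members past 2-fold, only Tlr12 had a bright probe and the others a middle or dim one. When ratios were centred on the median over all probes instead, the median of all genes moved to 0.12 and that of the members to 0.08, and the split became 6 higher and 8 lower, with Tlr4, Irak4 and Tab2 passing 2-fold.

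**Figure D1:**
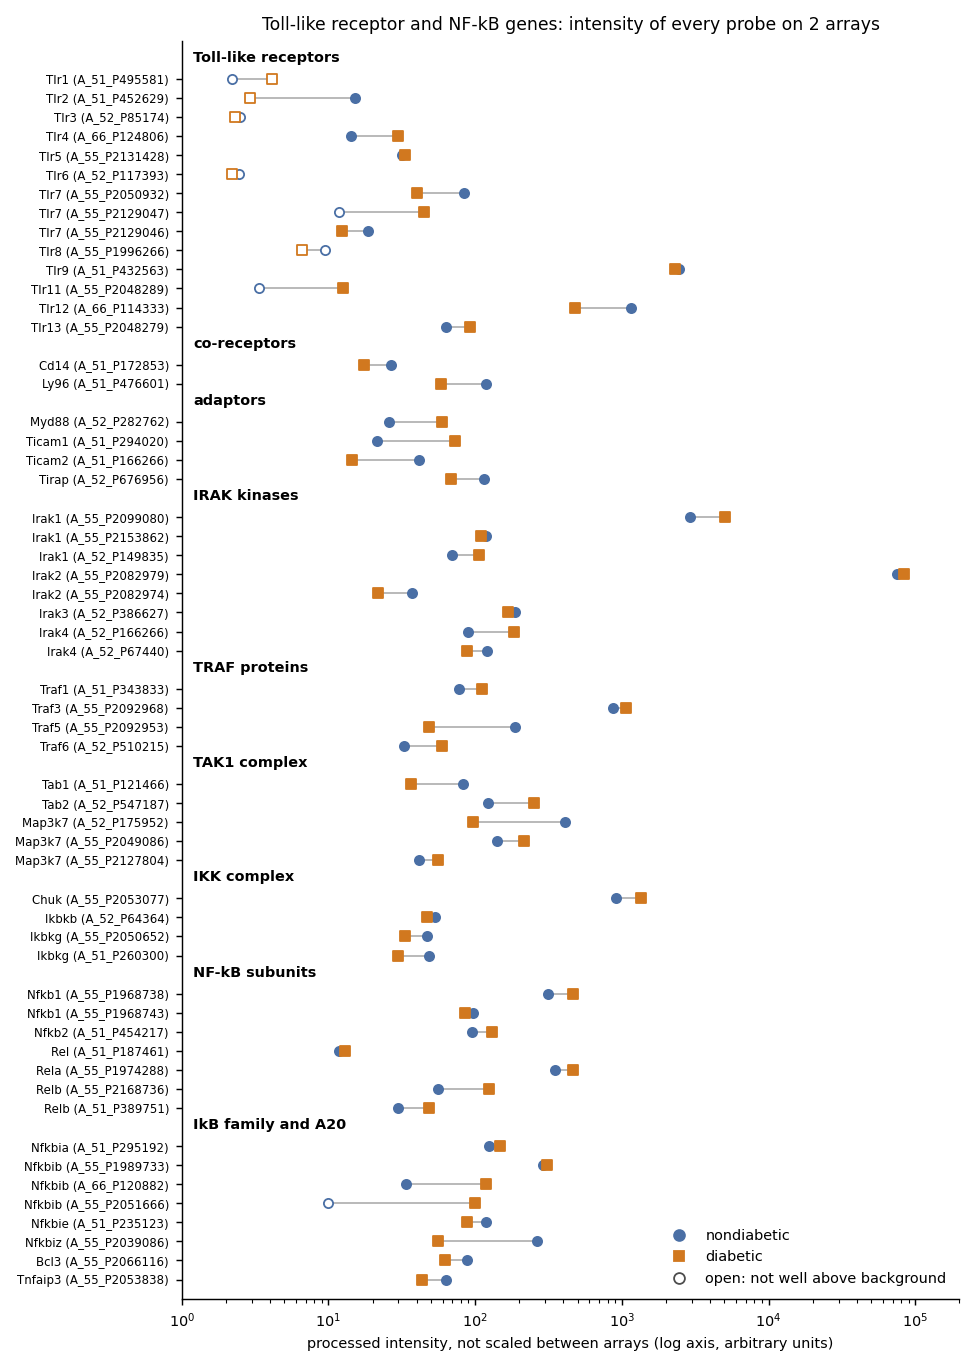
Processed intensity of all 56 probes on the nondiabetic array (circles) and the diabetic array (squares), on a log axis in arbitrary units and before scaling, grouped by role. Open symbols are probes not well above background. Tlr1, Tlr3, Tlr6 and Tlr8 have open symbols on both arrays, and the long lines of Traf5, Nfkbiz and the first Map3k7 probe run towards lower diabetic values.

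Both receptors that passed 2-fold act within endosomes. Tlr12, a receptor for the actin-binding protein profilin of protozoan parasites, read 1147 on the nondiabetic and 478 on the diabetic array and was 2.61-fold lower (log2 -1.38). Tlr7, which senses single-stranded RNA, read 83.9 and 40.1 with its brightest probe and was 2.27-fold lower (log2 -1.18). The other Tlr7 probes did not share that size or direction: 1 read 18.6 and 12.4 (log2 -0.70), and the last read 45.1 on the diabetic array but was not well above background in nondiabetic cells (11.8), at least 3.53-fold higher. With the mean over its 3 probes Tlr7 had a log2 ratio of -0.02, so the direction of Tlr7 rests on the choice of probe. Tlr9, the receptor for unmethylated CpG DNA, read 2462 and 2294 (log2 -0.22), and Tlr13, which recognises bacterial ribosomal RNA, read 63.2 and 93.0 (log2 0.44).

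Of the receptors at the cell surface, only Tlr4 and Tlr5 were well above background on both arrays. Tlr4, which binds lipopolysaccharide, was printed in 2 spots that read 13.1 and 15.7 on the nondiabetic and 23.1 and 38.1 on the diabetic array. The diabetic spots were higher, without overlap, and the ratio was 1.91-fold (log2 0.93), just inside the 2-fold limit. Tlr5, the flagellin receptor, read 31.7 and 33.3 (log2 -0.05). Tlr11, the other profilin receptor and an endosomal one, read 12.6 on the diabetic array but was not well above background in nondiabetic cells (3.35), a bound of at least 1.14-fold higher.

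Tlr2, which recognises bacterial lipoproteins together with Tlr1 or Tlr6, was printed in 10 spots, of which 9 were kept. On the nondiabetic array its spots ran from 10.3 to 19.9 with a median of 14.6, and 7 of 9 were well above background. The diabetic spots ran from 2.08 to 5.60 with a median of 2.61, and 0 of 9 were well above background. The 2 sets of spots did not overlap, and since the diabetic level has only an upper limit the difference is given as at least 1.64-fold lower (log2 -0.72). The partners of Tlr2 were not detected on either array, with 2.21 and 4.11 for Tlr1 and 2.46 and 2.22 for Tlr6. Tlr3, the receptor for double-stranded RNA, read 2.51 and 2.30, and Tlr8, another sensor of single-stranded RNA, read 9.56 and 6.63, so no ratio is given for these genes either.

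The co-receptors of Tlr4 both had lower values on the diabetic array. Ly96 (MD-2), which holds lipopolysaccharide on Tlr4, read 120 and 59.0 and was 2.20-fold lower (log2 -1.14). Cd14, which hands lipopolysaccharide to that complex, read 26.6 and 17.5 (log2 -0.72) and did not pass 2-fold. The 12 receptors together had a median log2 ratio of -0.13 over the 8 with a value. Of these 8, 0 were at least 2-fold higher and 2 lower, where the shares over all genes were 11.0% and 10.1%.

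Promoter sequence is shown for members that are known targets of NF-kB or that stood out above. RefSeq gave windows (250 bases before to 50 after a transcript's start, build GRCm38.p6) for 33 of the 43 genes. None was given for Tlr4, Tlr7, Cd14, Ly96, Ticam2, Tab1, Ikbkb, Nfkb1, Relb and Nfkbiz. The NF-kB (kB) consensus decamer, searched on both strands, was found in 10 of these 33 genes (30.3%), beside 1388 of 27025 genes (5.14%) over all windows of that length: Tlr2, Tlr3, Map3k7, Traf3, Rel, Nfkb2, Nfkbia, Nfkbie, Bcl3 and Tnfaip3. The list was put together from a pathway whose feedback genes are known to carry such sequences, and a match describes letters in a window and not a bound site. In the window of Tlr2 (chr3:83841559-83841858, minus strand) capitals mark the matches, which start 173 and 8 bases before the transcript start of this window, the first being a run of overlapping matches on both strands. That start lies within the annotated Tlr2 gene, and so do the matches.
Tlr2: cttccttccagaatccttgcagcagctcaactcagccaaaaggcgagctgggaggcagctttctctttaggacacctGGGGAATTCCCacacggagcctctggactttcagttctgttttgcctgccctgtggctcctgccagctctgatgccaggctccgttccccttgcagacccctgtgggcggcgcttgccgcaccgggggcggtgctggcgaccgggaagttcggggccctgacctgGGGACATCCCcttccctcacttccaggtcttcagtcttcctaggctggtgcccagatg

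The adaptors differed in both directions. Myd88, the adaptor of nearly all Toll-like receptors and of the interleukin-1 receptor family, was measured in 9 kept spots of 10. They ran from 21.6 to 34.0 with a median of 24.1 on the nondiabetic array and from 54.5 to 66.2 with a median of 57.8 on the diabetic array. No diabetic spot fell within the nondiabetic range, and Myd88 was 2.13-fold higher (log2 1.09), with an SD of 0.23 between spots and spot log2 ratios from 0.67 to 1.34. This SD covers the printing and reading of the array, not the mice.

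Ticam1 (TRIF), the adaptor that Tlr3 and Tlr4 use to reach interferon genes, read 21.5 and 72.5 and was 3.11-fold higher (log2 1.64), the highest ratio among the 39 genes. Ticam2 (TRAM), which links TRIF to Tlr4, went the other way, from 41.2 to 14.6, and was 3.06-fold lower (log2 -1.62). Tirap, which does the same for MyD88, read 115 and 68.8 (log2 -0.86). So the 2 adaptors that carry the signal onward had higher values on the diabetic array, and the 2 that bridge to Tlr4 had lower values, each of the last 3 genes with 1 spot per array.

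**Figure D2:**
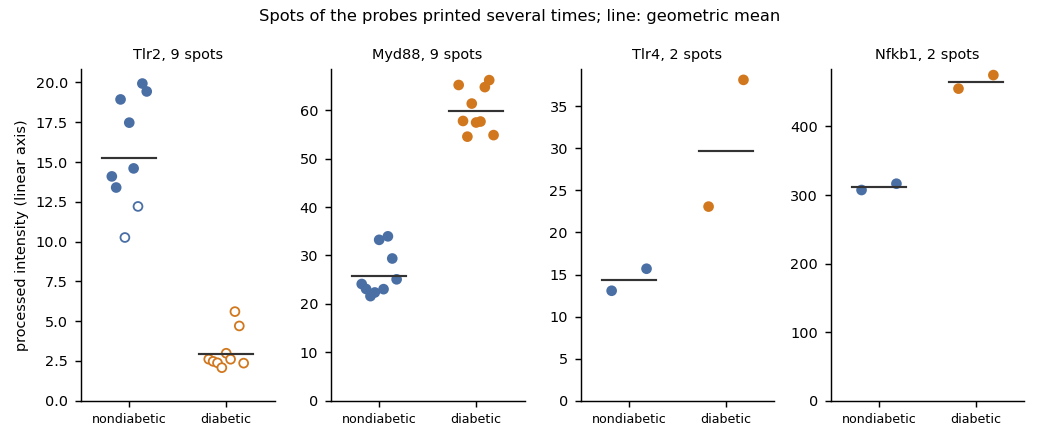
Processed intensity (linear axes in arbitrary units, each starting at 0) of every kept spot of the 4 member probes printed several times, on the nondiabetic and the diabetic array; lines are geometric means and open circles are spots not well above background. Spots of Tlr2 are all lower and spots of Myd88 all higher on the diabetic array, without overlap, as are both spots of Tlr4 and of Nfkb1.

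No IRAK kinase passed 2-fold on its brightest probe. Irak4, the kinase that MyD88 recruits first, read 90.0 and 183 (log2 0.91), but its other probe read 121 and 88.0 (log2 -0.57). Irak1, which Irak4 phosphorylates, read 2917 and 5091 (log2 0.69) with its brightest probe and had log2 ratios of 0.50 and -0.22 with the others. Irak2, which sustains the signal, read 74787 and 83559 (log2 0.04), and its dimmer probe 37.1 and 21.6 (log2 -0.89). Irak3 (IRAK-M), an inhibitor of the pathway, read 188 and 167 (log2 -0.29). For Irak1, Irak2 and Irak4, therefore, probes of the same gene lay on opposite sides of 0.

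Of the TRAF proteins, 1 of 4 passed 2-fold, downwards, where 10.1% of all genes did so. Traf5, which acts downstream of tumour necrosis factor receptors such as CD40, read 186 and 48.3 and was 4.17-fold lower (log2 -2.06). Traf6, the ubiquitin ligase that Toll-like receptors use to activate TAK1, read 32.8 and 59.5 (log2 0.74). Traf3, which serves the TRIF branch and restrains noncanonical NF-kB, read 872 and 1073 (log2 0.18), and Traf1 read 77.2 and 112 (log2 0.42).

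In the TAK1 complex 2 of 3 genes passed 2-fold by their brightest probes, both lower, where 10.1% of all genes were. A set of 3 genes is too small to read against that share, and the dimmer Map3k7 probes were higher. Map3k7, which encodes TAK1 itself, read 412 and 96.2 with its brightest probe and was 4.65-fold lower (log2 -2.22). Its other probes read 140 and 216 (log2 0.51) and 41.4 and 56.3 (log2 0.33), and with the mean over the probes the log2 ratio was -0.46. Tab1, an activating partner of TAK1, read 82.4 and 36.3 and was 2.46-fold lower (log2 -1.30), while Tab2, which tethers TAK1 to ubiquitin chains, read 123 and 251 (log2 0.92). The Map3k7 window (chr4:31963857-31964156, plus strand) held 1 match of the kB decamer, in capitals, starting 92 bases before the transcript start of this window, which like the match lies within the annotated gene.
Map3k7: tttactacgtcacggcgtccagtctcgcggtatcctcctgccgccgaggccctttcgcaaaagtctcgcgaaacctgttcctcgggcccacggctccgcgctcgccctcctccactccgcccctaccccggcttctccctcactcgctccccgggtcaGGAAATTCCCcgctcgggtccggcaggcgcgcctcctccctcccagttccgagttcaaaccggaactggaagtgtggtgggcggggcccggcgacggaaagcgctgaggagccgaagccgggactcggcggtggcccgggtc

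The IKK genes lay within 2-fold. Chuk (IKK-alpha) read 917 and 1353 (log2 0.44), and Ikbkb (IKK-beta), the kinase that marks IkB proteins in the canonical pathway, read 53.7 and 46.9 (log2 -0.31). Ikbkg (NEMO), the regulatory subunit, had log2 ratios of -0.64 and -0.81 with its 2 probes, from 47.4 to 33.1 and from 48.2 to 29.9. This was 1 of only 2 genes among the 9 with several probes whose probes shared a direction.

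**Figure D3:**
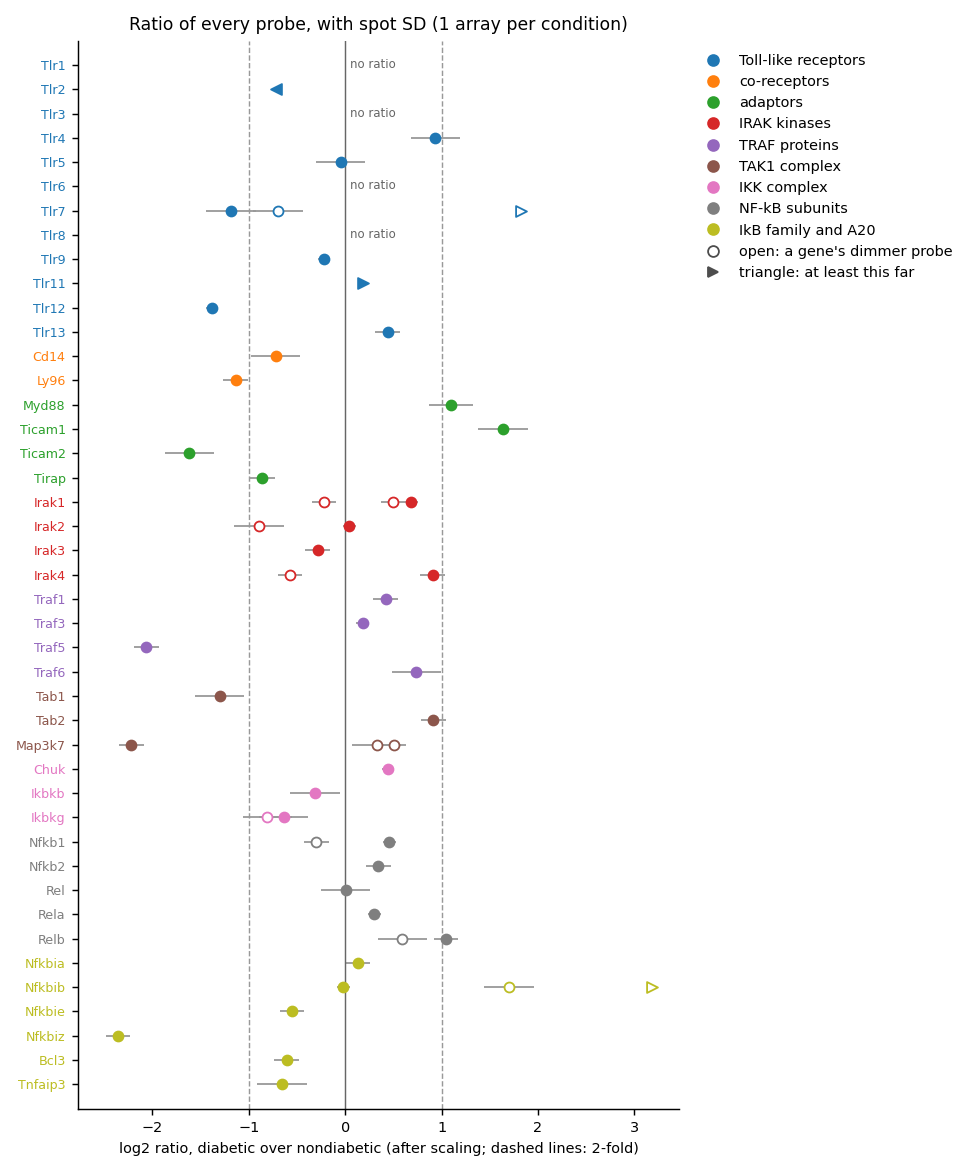
Log2 ratio, diabetic over nondiabetic after scaling, for every probe with a ratio (circles) or a bound (triangles, pointing where the true ratio may lie), coloured by role; filled symbols are the probe that stands for the gene and dashed lines mark 2-fold. Horizontal bars are 1 SD between spots, from the probe itself if it had at least 5 spots and otherwise the median SD of probes of like brightness (dim, middle or bright), and do not cover the spread between mice. Filled symbols pass 2-fold to the right for Myd88, Ticam1 and Relb, and to the left for 8 genes.

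The 5 NF-kB subunits all had log2 ratios at or above 0, where 7773 of the 15192 genes with a value were above 0. Their median was 0.35, and only Rel, at 0.01, changed sign when normexp background correction was used. Relb, the subunit of the noncanonical pathway, read 55.9 and 125 and was 2.07-fold higher (log2 1.05). Its other probe read 29.7 and 48.5 (log2 0.59), the same direction but short of 2-fold, and the mean over the probes was 0.82. Nfkb1 (p105/p50) was printed in 2 spots with nearly equal log2 ratios of 0.45 and 0.47, from 312 to 465. Another probe read 96.4 and 85.1 (log2 -0.30), and with the mean over its probes Nfkb1 was at 0.08. Rela (p65), the main activating subunit, read 348 and 467 (log2 0.30), Nfkb2 (p100/p52) read 95.0 and 131 (log2 0.35), and Rel (c-Rel) read 11.8 and 12.9, close to background. Apart from Relb these ratios were small beside the 2-fold limit, and whether they exceed the spread between mice was not tested.

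In the IkB family and A20, 5 of 6 genes had log2 ratios below 0, where 7419 of the 15192 genes with a value did. Nfkbib, at -0.02, was 1 of these 5. The count became 4 when ratios were centred on their median, which moved Nfkbib to 0.08. It was also 4 with the mean over a gene's probes, which moved Nfkbib to 1.62. The median of the 6 was -0.58. Nfkbiz (IkB-zeta), a nuclear IkB protein induced by Toll-like receptors that is needed for a part of the NF-kB target genes, read 262 and 55.5 and was 5.12-fold lower (log2 -2.36), the lowest ratio of all members by the brightest probe, with Map3k7 close to it and lower under normexp (-1.71, beside -1.52). Tnfaip3 (A20), which removes ubiquitin chains and ends the signal, read 63.1 and 43.4 (log2 -0.66). Nfkbia (IkB-alpha), which holds NF-kB in the cytoplasm and is itself a fast NF-kB target, read 124 and 147 (log2 0.13). By the brightest probes, the 1 gene of these 6 past 2-fold was thus a nuclear IkB that some target genes need. Over all genes 10.1% were at least 2-fold lower.

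Nfkbie (IkB-epsilon) read 119 and 88.3 (log2 -0.55), and Bcl3, another nuclear IkB that binds p50 and p52, read 88.2 and 62.8 (log2 -0.61). Nfkbib (IkB-beta), like Tlr7, depended strongly on the probe. Its brightest probe read 289 and 309 (log2 -0.02), another 33.9 and 119 (3.25-fold higher), and the last read 101 on the diabetic array but was not well above background in nondiabetic cells (9.92), at least 9.08-fold higher. With the mean over the probes, Nfkbib was past 2-fold at a log2 ratio of 1.62.

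Windows of the best known feedback targets among these genes are printed because they show kB decamers close to a transcript start of genes that stayed within 2-fold here. In Nfkbia (chr12:55492598-55492897, minus strand) the match starts 29 bases before the transcript start. In Tnfaip3 (chr10:19015361-19015660, minus strand) matches start 125 and 12 bases before it. In Nfkb2 (chr19:46304487-46304786, plus strand, 1 of its windows) a run of overlapping matches on both strands starts 39 bases before the transcript start of that window and another match 11 bases before it, all within the annotated gene, which begins further upstream. Capitals mark the matches.
Nfkbia: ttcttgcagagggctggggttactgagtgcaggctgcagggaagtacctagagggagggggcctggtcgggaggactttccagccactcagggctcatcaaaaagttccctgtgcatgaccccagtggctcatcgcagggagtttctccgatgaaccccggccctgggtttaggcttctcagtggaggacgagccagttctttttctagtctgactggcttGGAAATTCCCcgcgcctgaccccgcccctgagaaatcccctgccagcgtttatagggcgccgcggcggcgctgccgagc
Tnfaip3: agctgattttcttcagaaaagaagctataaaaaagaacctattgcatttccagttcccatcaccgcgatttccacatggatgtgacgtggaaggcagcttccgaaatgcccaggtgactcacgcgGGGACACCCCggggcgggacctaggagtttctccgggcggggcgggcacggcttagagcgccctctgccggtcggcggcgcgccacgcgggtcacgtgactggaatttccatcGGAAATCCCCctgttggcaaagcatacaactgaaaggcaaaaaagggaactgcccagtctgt
Nfkb2: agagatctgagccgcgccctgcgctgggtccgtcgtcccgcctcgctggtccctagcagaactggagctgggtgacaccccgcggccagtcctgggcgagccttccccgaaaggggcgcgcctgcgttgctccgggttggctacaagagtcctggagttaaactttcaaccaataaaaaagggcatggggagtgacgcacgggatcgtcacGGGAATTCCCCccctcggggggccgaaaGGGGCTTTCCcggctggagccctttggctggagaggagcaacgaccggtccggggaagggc
The log2 ratios of these genes, 0.13, -0.66 and 0.35, did not share a direction. Of the 10 genes with a match, only Map3k7 passed 2-fold, with Tlr2 at its bound of -0.72 and Tlr3 without a ratio. The dimmer probes of Map3k7 went the other way (log2 0.51 and 0.33). No window was given for Tlr7, Ly96, Ticam2, Tab1, Relb and Nfkbiz, which passed 2-fold too, so the count leaves them out. Whether genes with a match differ less or more than the other members was not tested.

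Counted by probe, 6 of the 52 member probes with a ratio or bound were at least 2-fold higher, where the share over all probes was 11.2%, and 8 were at least 2-fold lower, where it was also 11.2%. Of the 9 genes with several probes, 7 had probes on opposite sides of 0 (77.8%, beside 49.2% of the 3846 genes with several measured probes). For 4 of them (44.4%, beside 40.1%), the probes differed by more than 2-fold: Tlr7, Irak4, Map3k7 and Nfkbib. Of the 11 genes past 2-fold, 8 rest on 1 probe and Tlr7, Map3k7 and Relb on a choice among several.

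Other genes of the pathway, from a list of 61 that holds none of the members, also moved in both directions. Of the 55 with a ratio, 11 passed 2-fold upwards (20%, beside 11.0% of all genes) and 9 downwards (16.4%, beside 10.1%), with a median log2 ratio of -0.06. The lowest was Ripk1, the kinase that links TRIF and TNF receptors to NF-kB and to cell death, which read 2430 and 133 and was 19.8-fold lower. The Ripk1 value rests on 1 probe with 1 spot per array. Next to the TAK1 genes, Tab3, a homologue of Tab2, was 3.22-fold lower, from 561 to 189. The IKK-related kinases were opposed: Tbk1, which phosphorylates IRF3, was 2.73-fold higher, from 27.9 to 82.5, and Ikbke was lower by over 2-fold (log2 -1.32), from 190 to 82.6.

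The receptor Cd180 (RP105), an inhibitory relative of Tlr4, was 3.37-fold higher, from 49.0 to 179, and its partner Ly86 (MD-1) 2.13-fold lower, from 56.4 to 28.7. Zc3h12a (Regnase-1), an RNase that degrades cytokine mRNAs, was 4.05-fold higher, from 37.9 to 167. Irf5, a transcription factor used by MyD88, was 3.65-fold higher, from 55.3 to 219, and Irf7, which makes type I interferon after Tlr7 and Tlr9, was 2.05-fold lower, from 104 to 55.0. The rest of the higher genes were Traf2, Peli2, Map2k3, Map2k6, Map2k7, Ube2v1 and Tank, and the rest of the lower ones Peli3, Map3k3, Map2k4 and Rbck1. Tank (log2 1.02 and -0.84), Map2k4 (log2 -1.13 and 0.54) and Ube2v1 (log2 1.02, -0.09 and 1.45) had a probe on the other side of 0, and with the mean over its probes Ube2v1 was at 0.79.

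NF-kB target genes were mostly undetected or little different. Of the 50 listed, 48 had a probe and 30 a ratio or bound, with 3 past the 2-fold limit upwards (10%, beside 11.0% of all genes) and 4 downwards (13.3%, beside 10.1%) and a median log2 ratio of -0.06. The higher genes were the chemokines Ccl4, 4.30-fold from 184 to 859, and Ccl3, 2.07-fold from 167 to 376, and the cytokine Il15, 3.37-fold from 22.6 to 82.7. The lower ones were Ier3, an early response gene (3.50-fold, from 212 to 65.6), Ccnd1, which encodes cyclin D1 (2.89-fold, from 144 to 54.0), the adhesion molecule Icam1 (at least 2.98-fold, from 27.6) and the growth factor Csf1 (at least 2.33-fold, from 21.6). Icam1 and Csf1 were not well above background on the diabetic array. Tnf, at 6.65 and 10.1, and Il6, Il1a, Cxcl1, Cxcl2 and Ptgs2 were not well above background on either array.

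**Figure D4:**
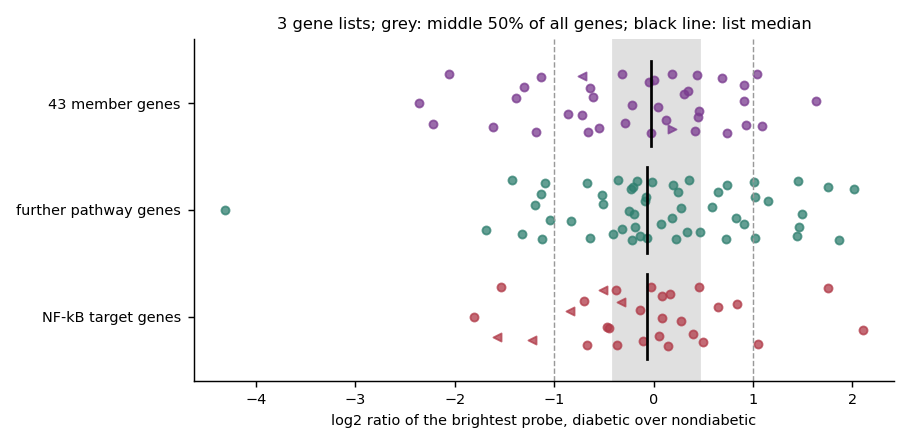
Log2 ratio, diabetic over nondiabetic after scaling, of the probe that stands for each gene in 3 lists: the 43 members, the further pathway genes and the NF-kB target genes (points are genes, triangles are bounds, vertical jitter has no meaning). Black lines are list medians of -0.02, -0.06 and -0.06, the grey band is the middle 50% of all genes (-0.41 to 0.47) and dashed lines mark 2-fold. The lists spread to both sides of 0, and the point far to the left is Ripk1.

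Markers of the sorted cells were present on both arrays: of 10 genes of the LSK gate and early progenitors, the nondiabetic array had 9 well above background and the diabetic array all 10, with Kit at 4635 and 4735 and Ly6a, which encodes Sca-1, at 475 and 701. In that list only Mecom (log2 -1.20) and the bound of Slamf1 (log2 1.37) passed 2-fold. Toll-like receptors are also carried by mature myeloid and dendritic cells. All 10 granulocyte, monocyte and macrophage markers with a probe were well above background on both arrays, 0 were 2-fold higher and 2 lower (S100a8, 52.2 and 20.4, and Cd68, 561 and 251), and their summed intensity was 43854 and 42614. Most of that sum is the brightest Itgam probe (34686 and 35189), whose dimmer probes were 2.17-fold and 2.46-fold lower. A dimmer Csf1r probe was 2.26-fold lower and a dimmer Adgre1 probe at least 2.86-fold higher, and by probe 1 of 14 with a value was 2-fold higher and 5 were lower. Of 8 dendritic cell markers, 5 were well above background on both arrays, Itgax only on the nondiabetic array (44.9 and 2.33), and Batf3 and Xcr1 on neither, with sums of 7320 and 8739 and H2-Aa higher (218 and 632). Siglech, a marker of the plasmacytoid dendritic cells in which Tlr7 and Tlr9 are abundant, read 4984 and 5046, which is most of the dendritic cell sums. Of the other lists, B cell markers summed to 752 and 1112, with Cd79a higher (39.3 and 121) and Ms4a1 and Ebf1 at background, and T and NK cell markers to 1664 and 1653, with Cd3d and Cd3g lower by their bounds (log2 -1.45 each) and Cd8a and Ncr1 at background. Among erythroid markers, Hba-a1 (1984 and 4967), Hbb-b1 (102 and 225) and Slc4a1 (124 and 529) were higher by 2-fold or more, and Klf1 (19.1 and 16.9), Epor (57.0 and 53.8) and Alas2 (213 and 295) stayed within 2-fold. The part of any of these cells in the ratios above was not tested.

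**Figure D5:**
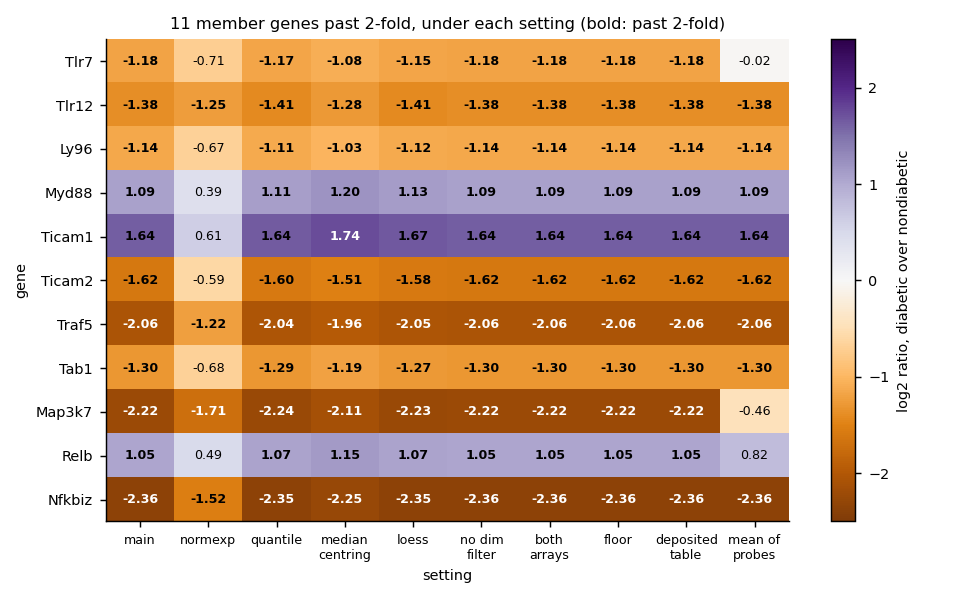
Log2 ratio, diabetic over nondiabetic, of the 11 member genes past 2-fold (rows) under the main and 9 other settings (columns), with values past 2-fold in bold and colour running from lower (orange) to higher (purple). Tlr12, Traf5, Map3k7 and Nfkbiz alone stay bold under normexp, and Tlr7, Map3k7 and Relb lose 2-fold under the mean of probes.

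The 11 genes past 2-fold stayed so under 7 of 9 other settings, but not all of these could have moved them. All 11 were well above background on both arrays, so the settings for dim probes (no filter, both arrays only, floor) left their ratios unchanged. The deposited table differs by 1 constant per array, which scaling removes. Quantile normalization, loess and centring could move the 11, and all stayed past 2-fold. Tlr4, Irak4 and Tab2 were added under centring, and Tlr2 and Tlr11 with no filter on dim probes. With normexp background correction, which adds an offset of 50 and so draws the ratios of dim probes towards 0, 4 stayed: Tlr12 at -1.25, Traf5 at -1.22, Map3k7 at -1.71 and Nfkbiz at -1.52. Myd88 then had a log2 ratio of 0.39, Ticam1 of 0.61, Ticam2 of -0.59 and Relb of 0.49. No gene among the 11 changed direction under any of these settings.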

How the data were processed

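Expression was measured on 2 Agilent 1-colour arrays, 1 for nondiabetic and 1 for STZ-diabetic LSK cells. For each array the authors deposited the processed intensity of every spot, made with Agilent Feature Extraction 11.5.1.1 (version from the file header), which corrects background within an array. The authors also deposited a table of both arrays that equalled this intensity times 1 constant per array (log2 factors of 3.48 and 3.35). The normalization behind it is not given in the sources used here. The grid of the array refers to build mm9, and no coordinates of the files were used (promoter windows are given on GRCm38.p6).

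For 59305 non-control spots, log2 intensity was scaled by subtracting the 75th percentile of its array. Spots marked as outliers on either array (192 and 147 spots) were left out, no spot was saturated, and spots of 1 probe were averaged on the log2 scale (55661 of 55681 probes remained). Transcript identifiers without versions were matched to a RefSeq table (GRCm38.p6), which named 31845 spots (53.7%), 28319 probes and 21360 genes. Of the lists used, Skp1a, Bcl2a1a, Bcl2a1b, Ly6g and Ly6c2 had no named probe. Another erythroid marker is not reported here. By the software's flag 62.7% and 63.9% of spots were well above background. For a probe above it on 1 array only, the bound sets the brighter value against the higher of the dim value and the lowest intensity well above background (10.2 and 10.1).

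No test was made, because there is 1 array per condition, and the number of arrays limits the precision. Differences were described by size, at 2-fold and 4-fold. All members are named with every probe, further pathway and NF-kB target genes where they passed 2-fold or were undetected examples, and cell type markers where they passed 2-fold or define a cell type. Members and lists were chosen with earlier results of these data known. Alternatives were normexp background correction (offset 50, on median spot intensity), loess (span 0.3), centring on the median log2 ratio, quantile normalization, no filter on dim probes, only probes above background on both arrays, a floor, the deposited table, and the mean over a gene's probes. The steps were tested on simulated data in which only bright probes were changed, which does not cover dim probes or bounds. Software was R 4.3.3 (limma 3.58.1) and Python 3.11.15 (matplotlib 3.10.9, numpy 2.4.6, pandas 2.3.3).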

Additional observations from a re-analysis of the deposited data

How the results depend on the processing

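With normexp background correction, 0 members were at least 2-fold higher and 4 lower, where the main setting gave 3 and 8. The same setting gave 5 member probes past 2-fold instead of 14, 2506 of all probes instead of 8450, 7 further pathway genes instead of 20 and 2 NF-kB target genes instead of 7. Its offset of 50 exceeds the intensity of dim members such as Myd88 and Ticam2 on the nondiabetic array. Centring on the median log2 ratio gave 6 members higher. With no filter on dim probes, 12906 of all probes and 11 NF-kB target genes passed 2-fold, and Tlr2 and Tlr11 joined the members. With the mean over a gene's probes, 8 of the 11 members stayed past 2-fold and Nfkbib joined them. The median log2 ratio of the members lay between -0.14 (floor) and 0.08 (centring), so its sign was not fixed. With the floor the median of all genes was -0.14 too, which is the value of any probe raised to the floor on both arrays. No member past 2-fold changed sign, but members close to 0 did: Tlr5 (0.06 with centring, 0.03 with normexp), Rel with normexp, Nfkbib (0.08 with centring, 1.62 with the mean over probes) and Irak2 (-0.43 with the mean over probes). With 1 array per condition no array could be left out. No paired analysis was possible because the 2 arrays form no replicate pairs and were not tested. Ratios of probes near background, such as those of Rel, Tlr4, Tlr11 and Cd14, are limited by their signal.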

Other observations

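Probes of the same gene also disagreed outside the members. Cflar, the caspase inhibitor induced by NF-kB, read 215 and 146 with its brightest probe (log2 -0.67), while its other probes were 3.49-fold higher, from 51.8 to 196, and 1.73-fold higher, from 35.6 to 66.7. Complement C3 read 1287 and 1486 with its brightest probe (log2 0.09), while a probe printed 10 times read 371 and 228 (log2 -0.82). The kinase Mapk9 (JNK2) read 609 and 588 with its brightest probe (log2 -0.17) and 96.7 and 227 with another (log2 1.12). Which transcripts of these genes each probe detects was not analysed here.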
